A study of Mus musculus with 6 samples.

Results

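The 10 immediate early genes *Fos*, *Fosb*, *Jun*, *Junb*, *Egr1*, *Atf3*, *Klf2*, *Klf4*, *Nr4a1* and *Ier2* were examined in 2 populations of mouse mammary fibroblasts. They were chosen by symbol, and all 10 were found among the 27179 genes of the count table. Fibroblasts were sorted from the mammary glands of pubertal female FVB/N mice (6 weeks of age per the study's methods) as Lin-CD24-Pdgfra+ cells, where Lin- means depleted for TER-119, CD31 and CD45, and were divided by surface CD34 into CD34hi and CD34lo fibroblasts. The mice carried no transgene or treatment named in the labels. Each of 3 pools of 2 mice yielded 1 CD34hi and 1 CD34lo library, which makes 3 libraries per population, paired by their mice. Poly(A) RNA was sequenced from sorted cells, and the values are counts of reads per gene.

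Immediate early genes are transcribed within minutes of a stimulus such as serum, a growth factor or stress, because the factors that switch them on (SRF with its ETS partners, and CREB) are already present in the resting cell and need only be phosphorylated. Most of their products are transcription factors, which then act on later genes, and their transcripts are short-lived. The same genes are known to respond to enzymatic dissociation and cell sorting. Every library here came from dissociated and sorted cells, so the level in the gland and any level gained after collection cannot be told apart.

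The libraries held between 28764779 and 52402410 counts, and 15219 genes passed the filter on low counts and were tested. Levels are given as CPM (counts relative to 1000000 counts of the TMM-adjusted library), in which 3 counts, taken as the floor, were worth between 0.0553 and 0.108 CPM. The members lay far above this floor and held between 86279 (*Klf2*) and 1746586 (*Fosb*) counts over the 6 libraries, so spread between libraries and not counting error set the precision. *Cd34* itself had between 2489 and 2638 CPM in the CD34hi libraries and between 476 and 793 CPM in the CD34lo libraries, the order that the labels give. The 8 fibroblast markers summed to between 58658 and 77244 CPM in CD34hi and between 94981 and 104441 CPM in CD34lo libraries, without overlap, while leukocyte, endothelial and epithelial markers summed to at most 21.8, 101 and 44.7 CPM.

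Sequence before the start of each gene was shown for the members to which the data below return, because CREB binds the cAMP response element, whose core is TGACG. RefSeq windows of the build GRCm38.p6 covered 8 of the 10 members, and the 250 bases before the start were searched on both strands. The core motif stood in 7 of these 8 members (*Fos*, *Fosb*, *Junb*, *Atf3*, *Klf2*, *Klf4* and *Nr4a1*), against 17.8% of the 32851 windows of all genes. The windows of all genes were not matched to the members in base composition or level, so these shares do not show enrichment of a site. Capitals mark the core motif, which reads CGTCA where it lies on the opposite strand, and each line gives a stretch around 1 occurrence, 5′ to 3′ on the strand of the gene.
Fos, chr12:85473812-85473840, plus strand: agttccgcccagTGACGtaggaagtccat
Fosb, chr7:19310089-19310117, minus strand: tggagttgcgggTGACGcaagcgcggggg
Junb, chr8:84978838-84978866, minus strand: gcttcctgacagTGACGcgagccgcctcc
Nr4a1, chr15:101266794-101266822, plus strand: cccctctccatgCGTCAcggagcgcttaa
Atf3, chr1:191183334-191183352, minus strand: ttaatagcattaCGTCAgc
Klf2, chr8:72318812-72318837, plus strand: ctggtttgtTGACGccgtcgccatag
Klf4, chr4:55532691-55532719, minus strand: ctgcctggctggCGTCAcggcctggcccc

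The *Nr4a1* window held 4 core motifs, and the *Fos* window held a core motif at 66 to 62 bases before the start and another at 129 to 125 bases. *Fos* was the only one of the 8 members with TATAAA, the core of a TATA box, which stood in 12.4% of all windows and lay 33 to 28 bases before its start.
Fos TATA box in capitals, chr12:85473845-85473874, plus strand: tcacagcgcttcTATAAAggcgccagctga

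The GC box GGGCGG stood in 7 of the 8 members (all but *Junb*) and in 32.7% of all windows. The full element TGACGTCA, the AP-1 site TGANTCA and the CArG box, bound by SRF, were in none of the 8 windows, and in 1.55%, 6.75% and 1.47% of all windows. A TGACGTCA element also contains the core. The core motif was found both in members that differed between the populations and in members that did not (below), so these windows do not separate them. Sites farther from the start were not searched, and *Egr1* and *Ier2* had no window. The absence of the CArG box and the AP-1 site from these windows therefore does not show that the members lack such sites.

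Of the 10 members, 6 were higher in CD34lo than in CD34hi fibroblasts and 0 were higher in CD34hi fibroblasts. The calls rest on the quasi-likelihood test of edgeR, with p-values adjusted by Benjamini-Hochberg over all genes tested and a threshold of 0.05. This main fit held no term for the mouse pool, so its standard errors, intervals and p-values do not use the pairing. Of all genes tested, 35.6% differed, 18.7% being higher in CD34lo and 16.9% higher in CD34hi fibroblasts. The 6 genes were *Fos*, *Fosb*, *Jun*, *Junb*, *Nr4a1* and *Ier2*, and their levels were between 1.79 times (*Junb*) and 3.64 times (*Nr4a1*) as high in CD34lo fibroblasts. In these 6 genes each CD34lo library lay above each CD34hi library, which was also so for 25.3% of all genes. Log2 fold changes are given as CD34hi vs CD34lo, so that a negative value means a higher level in CD34lo fibroblasts. The median over the 10 members was -0.91, against -0.0064 over all genes tested. In bulk libraries, more cells that express a gene and more RNA of it per cell cannot be told apart.

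**Figure D1:**
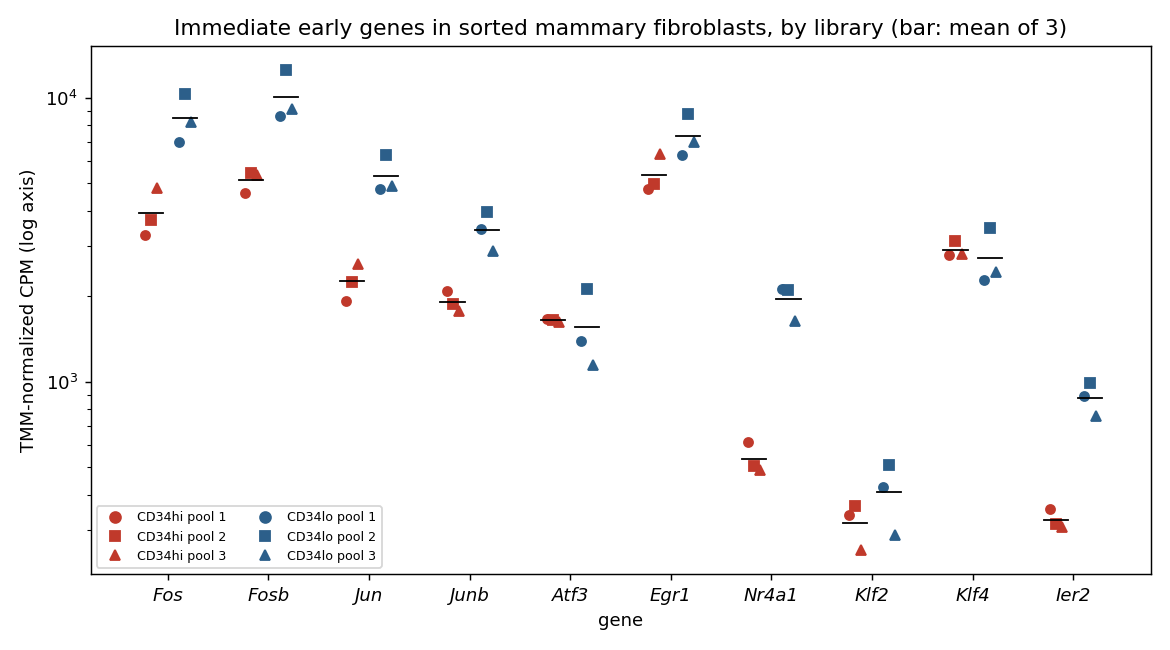
Level of each immediate early gene in the 6 libraries, in TMM-normalized CPM on a log axis, with red points for CD34hi, blue points for CD34lo, 1 marker shape per mouse pool and a bar at the mean of 3 libraries. The red and blue points are separate for *Fos*, *Fosb*, *Jun*, *Junb*, *Nr4a1* and *Ier2*, and overlap for *Atf3*, *Egr1*, *Klf2* and *Klf4*.

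FOS proteins pair with JUN proteins to form AP-1, a dimer held together by leucine zippers that binds DNA. *Fos* (gene 14281, mm10, chromosome 12, 85473901 to 85477269, plus strand) had 3277, 3704 and 4811 CPM in the CD34hi libraries of pools 1, 2 and 3. In the CD34lo libraries of the same pools it had 6966, 10304 and 8201 CPM. The lowest CD34lo library, that of pool 1, lay above the highest CD34hi library, that of pool 3. Mean levels were 3931 ± 792 CPM in CD34hi and 8490 ± 1688 CPM in CD34lo fibroblasts (SD, n = 3), and the log2 fold change was -1.11 (standard error 0.22, 95% interval -1.61 to -0.62, edgeR adjusted p = 0.00417). Within the pools it was -1.09, -1.48 and -0.77, so *Fos* was higher in the CD34lo library of 3 of 3 pools and pool 3 showed the smallest difference.

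*Fosb*, a second FOS protein gene (gene 14282, chromosome 7, 19302696 to 19310045, minus strand), had 4639, 5427 and 5350 CPM in CD34hi fibroblasts. Its CD34lo libraries had 8629, 12525 and 9100 CPM. The CD34hi libraries differed from each other by at most 1.17 times, against 1.45 times for the CD34lo libraries, in which pool 2 was the highest. Means of 5138 ± 435 and 10085 ± 2126 CPM (SD, n = 3) gave a log2 fold change of -0.97 (standard error 0.20, edgeR adjusted p = 0.00492). *Fosb* took more counts than any other member in CD34lo fibroblasts, where it ranked 6 among all genes by mean CPM, against 15 in CD34hi fibroblasts.

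*Jun* (gene 16476, chromosome 4, 95049036 to 95052222, minus strand) encodes the partner with which FOS proteins bind DNA, and the JUN protein can also form AP-1 with itself. It had 1921, 2239 and 2608 CPM in CD34hi and 4767, 6299 and 4875 CPM in CD34lo fibroblasts. The populations were far apart, since the lowest CD34lo library had 4767 CPM and the highest CD34hi library 2608 CPM. The log2 fold change was -1.24 (standard error 0.19, edgeR adjusted p = 0.00110), with -1.31, -1.49 and -0.90 in the 3 pools. *Jun* was the AP-1 gene with the largest difference among the 4 FOS and JUN genes here, though its 95% interval (-1.66 to -0.81) overlapped that of *Junb* (-1.22 to -0.46).

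*Junb* (gene 16477, chromosome 8, 84976909 to 84978748, minus strand) encodes a JUN protein that is a weaker activator than JUN in many contexts. CD34hi libraries had 2087, 1877 and 1777 CPM, and CD34lo libraries 3449, 3955 and 2897 CPM. The lowest CD34lo value, in pool 3, was above the highest CD34hi value, in pool 1. Its log2 fold change of -0.84 (standard error 0.17, edgeR adjusted p = 0.00445) was the smallest among the 6 genes that differed.

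*Atf3* (gene 11910, chromosome 1, 191170296 to 191183333, minus strand) encodes a stress-induced leucine zipper factor that can pair with JUN proteins and often represses. It had 1659, 1654 and 1626 CPM in CD34hi and 1395, 2130 and 1143 CPM in CD34lo fibroblasts. The CD34hi libraries were within 1.02 times of each other, whereas the CD34lo libraries spread over 1.86 times and lay on both sides of them, with pool 2 above and pools 1 and 3 below. *Atf3* did not pass the test, with a log2 fold change of 0.08 (95% interval -0.42 to 0.59, edgeR adjusted p = 0.806). Its sign turned without the CD34lo library of pool 3 (-0.095) or without both libraries of pool 3 (-0.087), so these libraries set no direction for *Atf3*.

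**Figure D2:**
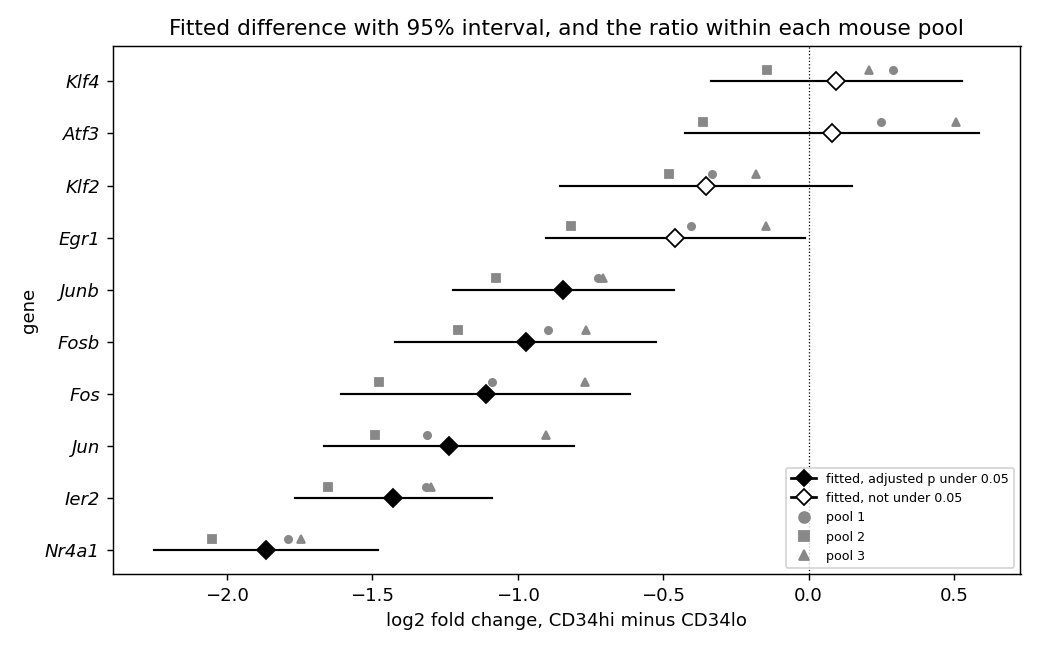
Log2 fold change of each member, CD34hi minus CD34lo, on the horizontal axis, with the fitted value and its 95% interval as a diamond and line (filled where the adjusted p-value was under 0.05) and the ratio within each mouse pool as grey points. All 3 pools lie left of 0 for *Egr1*, *Klf2* and the 6 genes with filled diamonds, and *Atf3* and *Klf4* have pool 2 on the left and pools 1 and 3 on the right.

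The members that encode zinc finger and nuclear receptor factors comprised 1 gene with the largest difference of all 10 and 3 that did not pass the test. *Nr4a1* (gene 15370, chromosome 15, 101266846 to 101274795, plus strand), an orphan nuclear receptor gene whose window with 4 core motifs is described above, had 615, 507 and 489 CPM in CD34hi fibroblasts. It had 2127, 2103 and 1639 CPM in CD34lo fibroblasts. Even the lowest CD34lo library was well above the highest CD34hi library. Means were 537 ± 68.6 and 1956 ± 275 CPM (SD, n = 3), and the level in CD34lo fibroblasts was 3.64 times that in CD34hi fibroblasts (95% interval 2.79 to 4.76). The log2 fold change was -1.87 (standard error 0.17, edgeR adjusted p = 6.1e-05), with -1.79, -2.05 and -1.75 in the 3 pools.

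*Egr1* (gene 13653, chromosome 18, 34861207 to 34864956, plus strand), a zinc finger factor gene and a classical target of SRF and the ERK pathway, had 4772, 4972 and 6323 CPM in CD34hi fibroblasts. CD34lo fibroblasts had 6311, 8758 and 7002 CPM. The ranges touched, because the CD34hi library of pool 3 lay just above the CD34lo library of pool 1, although *Egr1* was higher in the CD34lo library of each pool (-0.40, -0.82 and -0.15). The log2 fold change was -0.46 (standard error 0.20, 95% interval -0.90 to -0.013), and its adjusted p of 0.101 in edgeR missed the threshold. Of 18 alternative fits 3 placed it under the threshold, namely edgeR without the CD34hi library of pool 3 (-0.59, adjusted p = 0.0484), DESeq2 (adjusted p = 0.0369) and limma-voom with the mouse pool as a block (adjusted p = 0.0409). The value was smaller without both libraries of pool 2 (-0.26, edgeR adjusted p = 0.478), without the CD34lo library of that pool (-0.32, 0.210) and without the CD34hi library of pool 1 (-0.35, 0.304). With the mouse pool as a block, edgeR gave an adjusted p of 0.0608.

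*Klf4* (gene 16600, chromosome 4, 55527137 to 55532475, minus strand), a Krüppel-like factor gene known from reprogramming, had 2791, 3139 and 2818 CPM in CD34hi and 2280, 3466 and 2441 CPM in CD34lo fibroblasts. The CD34lo library of pool 2 was the highest of all 6 and the other CD34lo libraries were the lowest. The log2 fold change was 0.10 (95% interval -0.34 to 0.53, edgeR adjusted p = 0.731). By that interval the level in CD34lo fibroblasts lay between 0.694 and 1.26 times that in CD34hi fibroblasts. The value rested on single libraries, being 0.30 without the CD34lo library of pool 2 and 0.0078 without that of pool 1.

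*Klf2* (gene 16598, chromosome 8, 72319062 to 72321654, plus strand), best known as a flow-responsive endothelial factor, was the member with the lowest level. It had 339, 365 and 255 CPM in CD34hi and 427, 509 and 290 CPM in CD34lo fibroblasts. The CD34lo library of pool 3 lay below 2 of the 3 CD34hi libraries, but above the CD34hi library of its own pool. The log2 fold change was -0.35 (95% interval -0.86 to 0.15, edgeR adjusted p = 0.247), and within the pools it was -0.33, -0.48 and -0.18. With the mouse pool as a block, the adjusted p was 0.0620 in edgeR and 0.0442 in limma-voom, the only one of 18 settings that called *Klf2*. Single libraries moved the value, to -0.17 without the CD34lo library of pool 2, to -0.21 without the CD34hi library of pool 3 and to -0.55 without the CD34lo library of pool 3. Endothelial cells, also known for *Klf2*, should have been removed by the depletion for CD31. Of 8 endothelial markers, 3 were higher in CD34lo and 1, *Kdr* (53.1 vs 6.05 CPM), was higher in CD34hi fibroblasts. All 8 summed to between 54.9 and 101 CPM in CD34hi and between 41.8 and 67.1 CPM in CD34lo libraries. Without *Kdr*, left out after its values were seen, the other 7 summed to between 10.6 and 30.0 CPM in CD34hi and between 37.2 and 61.6 CPM in CD34lo libraries. The part of endothelial cells in the level of *Klf2* was not tested.

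*Ier2* (gene 15936, chromosome 8, 84661331 to 84662852, minus strand) encodes a small nuclear protein of the immediate early response. Its values were 358, 317 and 308 CPM in CD34hi and 891, 994 and 757 CPM in CD34lo fibroblasts. All CD34lo libraries were above the CD34hi libraries, and the spread within a population was small, at 1.16 times in CD34hi and 1.31 times in CD34lo fibroblasts. The log2 fold change of -1.43 (standard error 0.15, edgeR adjusted p = 1.3e-04) came second among the members after *Nr4a1*, and the 95% intervals of both genes overlapped (-1.77 to -1.09 and -2.25 to -1.48).

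To compare genes with each other, levels were divided by the length that the table gives (RPKM, TMM-normalized CPM per kilobase). *Fos* had the highest level per length in both populations, at 1878 ± 378 RPKM in CD34hi and 4057 ± 806 RPKM in CD34lo fibroblasts (SD, n = 3). In CD34lo fibroblasts *Fosb* (2671 RPKM), *Egr1* (2395), *Junb* (1866) and *Jun* (1667) followed, and neighbours among these overlapped in range over the libraries, while *Fos* stood apart from *Fosb*. Within each CD34lo library, however, *Fosb* was above *Egr1*, *Egr1* above *Junb* and *Junb* above *Jun*. *Jun* did not overlap the gene after it. Then came *Klf4* (897 RPKM), *Nr4a1* (790), *Atf3* (787) and *Ier2* (579), also overlapping in that order, and last *Klf2* (225), which lay apart.

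In CD34hi fibroblasts the order of the levels per length was *Fos*, *Egr1* (1743 RPKM), *Fosb* (1361), *Junb* (1040), *Klf4* (958), *Atf3* (833), *Jun* (708), *Nr4a1* (217), *Ier2* (215) and *Klf2* (176). The ranges of *Fos* and *Egr1* overlapped there, as did those of *Junb* and *Klf4* and those of *Nr4a1* and *Ier2*, and the other neighbours did not. Within each CD34hi library *Fos* was above *Egr1*. *Jun* stood above *Klf4* and *Atf3* in CD34lo fibroblasts and below both in CD34hi fibroblasts.

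The balance between members was followed by ratios of RPKM within each library. For *Fos* over *Atf3*, the ratio was 2.26 ± 0.481 in CD34hi and 5.36 ± 1.23 in CD34lo fibroblasts (SD, n = 3), and the ratio of *Nr4a1* over *Egr1* was 0.127 ± 0.0321 and 0.335 ± 0.0717. Neither ratio overlapped between the populations (exact two-sided permutation p = 0.1 each, the smallest that 3 libraries against 3 can give). Both ratios set a member that differed over a member that did not, so their separation restates the levels given above. *Fos* over *Fosb* was 1.38 ± 0.214 and 1.52 ± 0.0909 (exact permutation p = 0.3), and *Jun* over *Junb* was 0.689 ± 0.158 and 0.896 ± 0.0890 (exact permutation p = 0.2), so both overlapped. Within pools, each of these 4 ratios was higher in the CD34lo library in 3 of 3 pools, though *Fos* over *Fosb* was nearly equal in pool 3 (1.623 in CD34hi and 1.626 in CD34lo). After Benjamini-Hochberg adjustment over 5 such permutation tests, p was 0.167, 0.167, 0.3 and 0.25.

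The members took a large part of the sequenced RNA. Together they held 2.2%, 2.39% and 2.60% of all counts in the CD34hi libraries of pools 1, 2 and 3, and 3.85%, 4.94% and 4.01% in the CD34lo libraries. The share was higher in the CD34lo library of each pool and did not overlap between the populations, with means of 2.40% ± 0.199 and 4.27% ± 0.585 (SD, n = 3, exact permutation p = 0.1, adjusted 0.167 over the same 5 tests). Among the 10 genes with the most counts in a library there were 0 members in each CD34hi library and 3, 4 and 2 members in the CD34lo libraries of pools 1, 2 and 3. Among the top 100 genes there were 7 members in each CD34hi library and 8 in each CD34lo library.

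**Figure D3:**
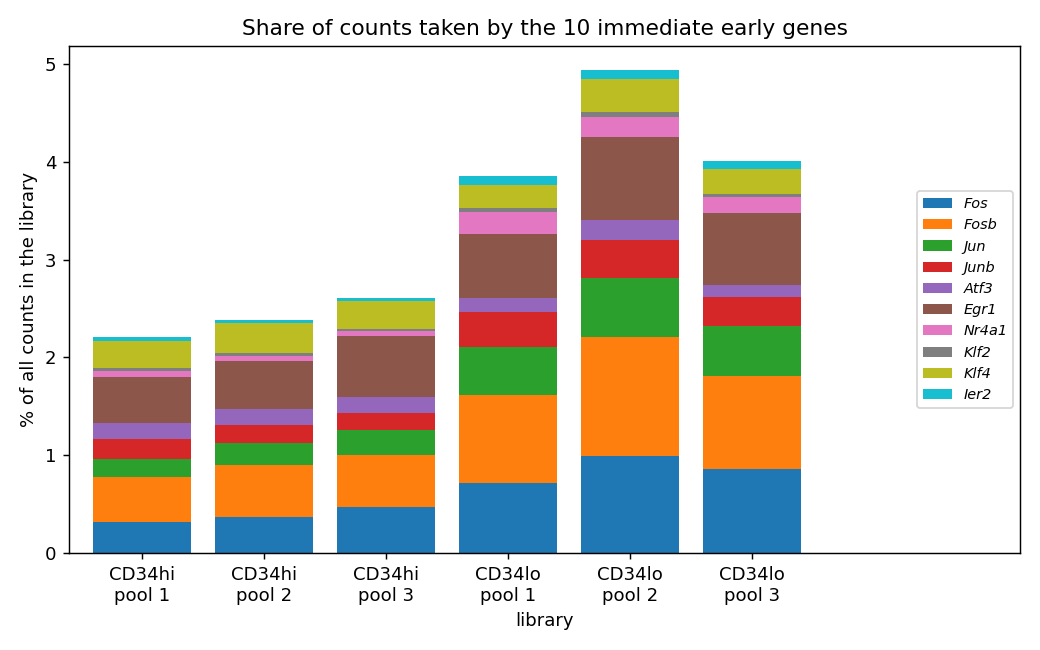
Percent of all counts of a library taken by the 10 members, 1 bar per library from 0 and 1 colour per gene. The CD34lo bars reach 3.85% to 4.94% and the CD34hi bars 2.2% to 2.60%, and *Fos*, *Fosb* and *Egr1* make up most of each bar.

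The libraries of 1 population also differed among themselves. The CD34lo library of pool 2 was the highest of its population in 9 of the 10 members, all but *Nr4a1*, with a median deviation from the population mean of 0.28 on the log2 scale, against 0.0079 over all genes tested. The CD34hi library of the same mice was the highest of its population in 3 members and the lowest in 0. Without the CD34lo library of pool 2 the same 6 members differed, with log2 fold changes of -0.95 (*Fos*), -0.79 (*Fosb*), -1.10 (*Jun*), -0.73 (*Junb*), -1.81 (*Nr4a1*) and -1.34 (*Ier2*). *Fos*, *Jun* and *Egr1* were highest among CD34hi libraries in pool 3, which was also the CD34hi library with the lowest *Junb*, *Atf3*, *Klf2*, *Nr4a1* and *Ier2*, so the members did not move as 1 block between mice.

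**Figure D4:**
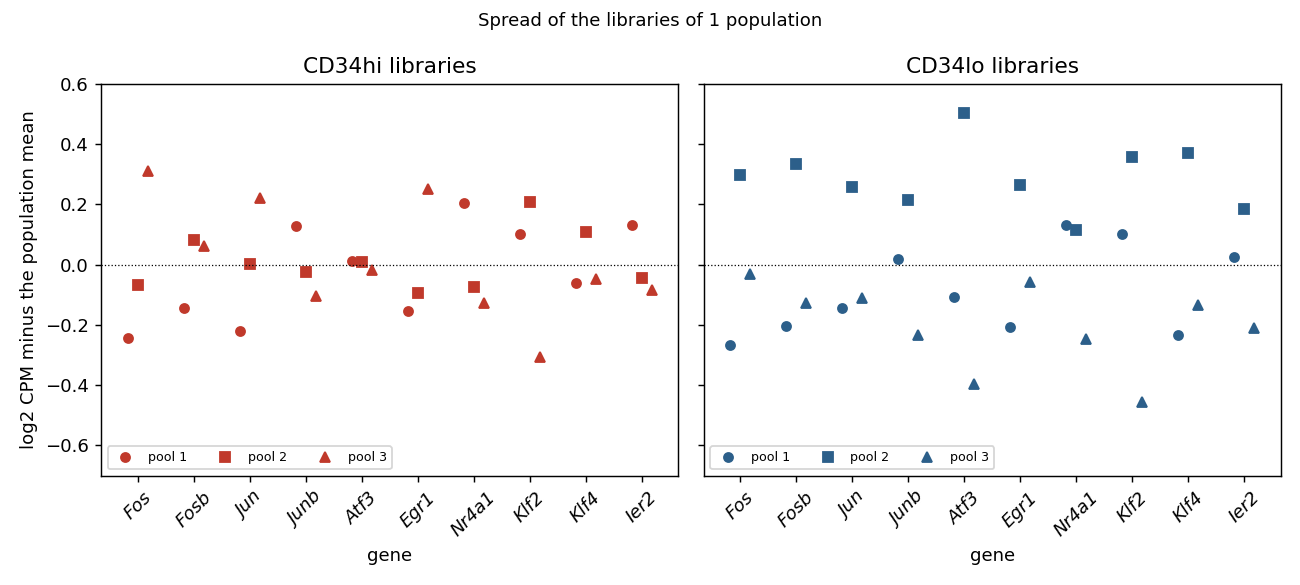
Deviation of each library from the mean of its population, in log2 CPM, for the 10 members, with CD34hi libraries on the left and CD34lo libraries on the right and 1 marker shape per mouse pool. The squares of pool 2 are at the top on the right for 9 of 10 genes, and no single pool is at the top on the left.

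Relatives of the members were taken from lists by family. These and the lists below were chosen with earlier results of these data known, so their shares are description only. Among 14 other AP-1 and ATF genes, 4 were higher in CD34lo and 0 higher in CD34hi fibroblasts in edgeR, with a median log2 fold change of -0.40. The share of this list that differed, 28.6%, was below the 35.6% of all genes tested. The 4 were *Fosl2* (715 ± 108 vs 1041 ± 158 CPM, log2 fold change -0.54, adjusted p = 0.0374) and, named after their values were seen, *Batf*, *Batf2* and *Batf3*, whose levels were below 5 CPM in each library. With the mouse pool as a block in edgeR, 7 were higher in CD34lo and 1 was higher in CD34hi fibroblasts, the latter being *Fosl1* (12.8 vs 6.14 CPM). Over all 15219 genes tested, 6161 differed with this block, against 5411 without it, which is also the background of the block counts given below for other lists. The number of these 14 genes that differed was 2 without pool 1 or pool 2, 9 without pool 3 and 8 without the CD34lo library of pool 3. *Jund*, the third JUN gene and the one least tied to stimulation, had 1016 ± 63.2 CPM in CD34hi and 1383 ± 325 CPM in CD34lo fibroblasts (log2 fold change -0.44, edgeR adjusted p = 0.101).

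Of 17 relatives in the EGR, NR4A, KLF and IER families 70.6% differed, against 35.6% of all genes tested. Among them 11 were higher in CD34lo and 1 was higher in CD34hi fibroblasts, with a median log2 fold change of -1.22. *Egr2* (93.6 ± 6.49 vs 547 ± 31.5 CPM, -2.55) and *Egr3* (10.0 ± 2.12 vs 82.6 ± 11.4 CPM, -3.04) belong to the same family as *Egr1*, whose difference did not pass. The other NR4A receptor genes, *Nr4a2* (7.12 ± 2.10 vs 56.2 ± 14.0 CPM, -2.99) and *Nr4a3* (75.6 ± 14.0 vs 366 ± 86.7 CPM, -2.28), were both higher in CD34lo fibroblasts, as *Nr4a1* was. Among the Krüppel-like factors, *Klf5* (4.22 ± 1.14 vs 31.1 ± 6.95 CPM, -2.88) had the largest difference, and *Klf3*, a repressor, was the gene higher in CD34hi fibroblasts (86.2 ± 11.5 vs 24.9 ± 4.76 CPM, 1.80). Of the relatives of *Ier2*, *Ier3* (199 ± 51.1 vs 463 ± 91.9 CPM, -1.22) and *Ier5l* (3.10 ± 1.27 vs 18.1 ± 2.17 CPM, -2.54) were higher in CD34lo fibroblasts, and *Ier5* did not pass (564 ± 67.6 vs 538 ± 136 CPM, 0.07).

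Of 32 other serum and stress response genes 40.6% differed, against 35.6% of all genes tested. In that list 10 were higher in CD34lo and 3 higher in CD34hi fibroblasts (median -0.26). With the mouse pool as a block in edgeR, 11 were higher in CD34lo and 6 higher in CD34hi fibroblasts. The median was -0.15 without the CD34lo library of pool 2 and -0.42 without that of pool 3. *Arc*, an immediate early gene of neurons (-2.92), *Gadd45b*, a growth arrest gene (-1.84), and *Zfp36l2*, whose product promotes mRNA decay (-1.67), were higher in CD34lo fibroblasts. *Ptgs2*, which encodes the prostaglandin synthase COX-2, was higher in CD34hi fibroblasts (789 ± 139 vs 186 ± 49.8 CPM, 2.09), as were *Nfkbia* and *Nfkbiz*, genes of the NF-kB pathway, which were named after their values were seen. The number that differed in this list was 7 without pool 1 or without the CD34hi library of pool 2, and 8 without the CD34lo library of pool 1.

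Feedback genes were examined next, namely dual-specificity phosphatases, Sprouty and SPRED proteins, which dampen kinase pathways, and the NAB corepressors of EGR proteins. Among these 16 genes 75% differed, against 35.6% of all genes tested. Of the 16, 10 were higher in CD34lo and 2 higher in CD34hi fibroblasts, and the median was -1.10. With the mouse pool as a block in edgeR, the numbers were 11 and 4. The ERK phosphatase genes *Dusp6* (7.91 ± 1.13 vs 119 ± 39.9 CPM, -3.91) and *Dusp4* (-3.34) and the Sprouty genes *Spry1* (-3.59) and *Spry4* (-2.95) had the largest differences. *Spry2* and *Dusp10*, the 2 genes that were higher in CD34hi fibroblasts, were named after their values were seen. *Dusp1*, itself an immediate early gene and likewise named after its values were seen, had 2150 ± 266 and 2239 ± 510 CPM (log2 fold change -0.06, edgeR adjusted p = 0.841).

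Among 24 upstream factors and kinases 45.8% differed, against 35.6% of all genes tested. Here 7 were higher in CD34hi and 4 higher in CD34lo fibroblasts (median 0.15). *Srf*, the factor that binds the serum response element, had 50.6 ± 4.74 CPM in CD34hi and 118 ± 20.4 CPM in CD34lo fibroblasts (-1.22), while its ETS partner gene *Elk3* (0.84), the MADS-box factor gene *Mef2c* (1.33) and the ribosomal S6 kinase gene *Rps6ka3* (0.91) were higher in CD34hi fibroblasts. Without pool 2, 6 of these genes differed. In the list of 19 heat shock and chaperone genes, 6 were higher in CD34lo and 1 was higher in CD34hi fibroblasts (median -0.34), and the 36.8% that differed was close to the 35.6% of all genes tested. With the mouse pool as a block in edgeR, 9 were higher in CD34lo fibroblasts. *Hspa1a* (-2.44) and *Hspa1b* (-2.54), near-identical copies between which reads may be split with uncertainty, and *Hsph1* (-1.05) were higher in CD34lo fibroblasts, and *Hspb8* was higher in CD34hi fibroblasts (1.95). Heat shock genes also respond to handling of cells, and their part in the values of the members was not tested.

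**Figure D5:**
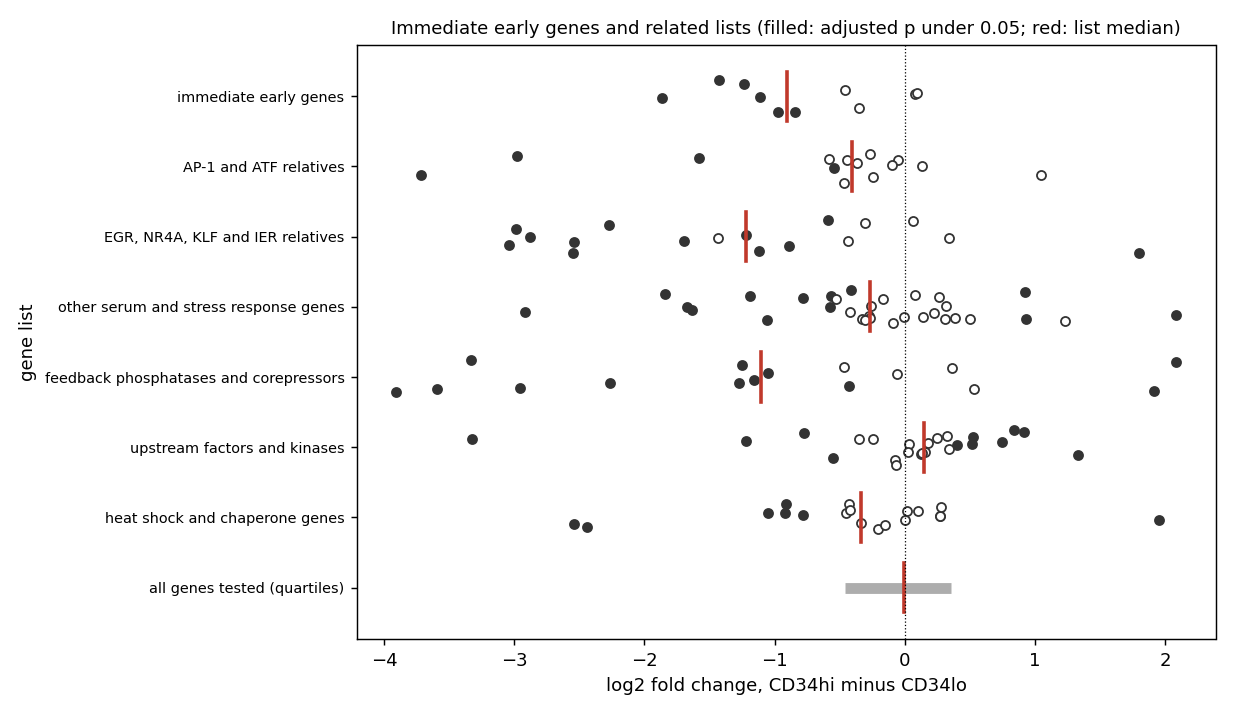
Log2 fold change, CD34hi minus CD34lo, of each gene in the member list and the related lists, with filled points for adjusted p-values under 0.05 and a red line at each list's median. The medians are -0.91 for the immediate early genes, -1.22 for the EGR, NR4A, KLF and IER relatives, -1.10 for the feedback genes and 0.15 for the upstream factors, and the grey bar shows the quartiles of all genes tested (-0.46 to 0.36).

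Every marker list but the epithelial one held genes that differed between the populations. Of the 8 epithelial markers 0 differed, and their sums overlapped (37.4 to 44.7 CPM in CD34hi and 33.4 to 44.1 CPM in CD34lo libraries). As background for the counts below, 18.7% of all genes tested were higher in CD34lo and 16.9% higher in CD34hi fibroblasts. Of the 8 fibroblast markers, 6 were higher in CD34lo and 0 higher in CD34hi fibroblasts, with a median log2 fold change of -0.80. Leukocyte markers summed to between 18.3 and 21.8 CPM in CD34hi libraries, mostly from *Cd3e*, and between 9.09 and 14.4 CPM in CD34lo libraries (*Cd3e* 14.9 vs 3.77 CPM). Of the 7 tested, 1 (*Cd3e*) was higher in CD34hi and 2 were higher in CD34lo fibroblasts. Without *Cd3e*, left out after its values were seen, the other leukocyte markers summed to between 4.05 and 5.82 and between 7.42 and 10.2 CPM. Of the Schwann markers 3 of 5 were higher in CD34lo and 1 was higher in CD34hi fibroblasts, with sums between 28.8 and 39.3 and between 26.8 and 29.8 CPM. Of the adipocyte markers 2 of the 3 tested were higher in CD34lo fibroblasts, with sums between 1.99 and 3.00 and between 4.66 and 6.94 CPM. Keratinocyte markers summed to between 32.6 and 50.4 CPM in CD34hi and between 4.15 and 7.51 CPM in CD34lo libraries, with *Krt1* at 0 in each library. Of the 4 tested, 3 were higher in CD34hi and 0 higher in CD34lo fibroblasts. The 7 pericyte and smooth muscle markers summed to between 140 and 195 CPM in CD34hi and between 192 and 277 CPM in CD34lo libraries, and 5 of them were higher and 1 was lower in CD34lo fibroblasts. *Abcc9* had the highest mean of the 7 in each population (123 vs 106 CPM) and did not pass the test. The lower marker was *Kcnj8* (34.7 vs 13.3 CPM), and the higher ones included *Myh11* (2.37 vs 34.7 CPM) and *Notch3* (4.44 vs 43.1 CPM). These 4 genes were named after their values were seen. Summed CPM of markers does not give the share of the marked cells in a library or their level of a member. The part of such cells, or of the fibroblast markers, in the values of the members was not tested.

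Lastly, the genes most like the members in pattern were sought among 8950 genes by the root mean square difference from the members' median profile over the 6 libraries, in log2 CPM centred on each gene's mean. That profile was -0.48, -0.42 and -0.41 in the CD34hi and 0.28, 0.72 and 0.27 in the CD34lo libraries of pools 1, 2 and 3. *Dzip1l* (0.040), a gene without a symbol (gene 100503298, 0.058), *Fdxr* (0.074) and *Trim47* (0.082) were among the nearest. Of the members, *Fosb* was nearest to it (0.077), then *Junb* (0.12) and *Fos* (0.20), and *Nr4a1* was farthest (0.54). *Dzip1l* was expressed at 8.05 CPM in CD34hi and 14.7 CPM in CD34lo fibroblasts, a small part of the level of any member.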

How the data were processed

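RNA-seq was performed on the CD34hi and CD34lo fibroblasts of 3 pools of 2 mice. The authors aligned the reads to the GRCm38/mm10 genome, assigned them to genes with Rsubread and deposited the raw counts. The strand setting is not given in the sources used here. Gene identifiers were matched to symbols with a reference gene table (25275 of 27179). Coordinates and gene lengths are those of the deposited table, and no member overlapped another gene in it.

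The analysis used edgeR 4.0.16 in R 4.3.3 (filterByExpr by population, TMM, the quasi-likelihood test, Benjamini-Hochberg adjustment over 15219 genes, threshold 0.05). A standard error is the size of the log2 fold change over the root of its F statistic. The common coefficient of variation was 19.7%. The script was tested on simulated data with no pool effect and a smaller share of changed genes than was called here, so its error rates under these conditions were not tested. Ratios and shares were compared by exact two-sided permutation tests in scipy 1.17.1. The design pairs the libraries by mouse pool, but the main fit held no term for the pool. The pool entered only in the alternatives with a replicate block. Between the deviations from population means of the libraries of a pool, Pearson's r across genes was 0.279, 0.0844 and 0.243 in pools 1, 2 and 3. Replicates differed by more than sampling noise (chi-square per degree of freedom at least 22.5).

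Alternatives were RLE and upper-quartile normalization, other count filters, limma-voom (limma 3.58.1), DESeq2 1.42.0, a replicate block for the mouse pool, thinned counts, libraries and pools left out, an adjusted p-value under 0.01 and a limit of 1 on the size of the log2 fold change. The members and the lists were chosen with earlier results of these data known. Named genes are the members, relatives set beside them, up to 4 genes per list with the largest change among those past the threshold with a mean log2 CPM not under 2, and the 5 genes with the most similar pattern whose mean log2 CPM was not under 3. Genes outside this rule are given as named after their values were seen, and 1 of the 5 genes with a similar pattern is not reported here.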

Additional observations from a re-analysis of the deposited data

How the results depend on the processing

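The 6 members *Fos*, *Fosb*, *Jun*, *Junb*, *Nr4a1* and *Ier2* kept their direction and stayed under the threshold in each of the 18 alternative fits, and 4 of them also passed a limit of 1 on the size of the log2 fold change. Between 4 and 8 members differed over all 20 alternatives, and 0 were ever higher in CD34hi fibroblasts. With the replicate block for the mouse pool in edgeR, the call of no member changed (*Nr4a1* -1.86, *Fos* -1.11), and limma-voom with that block called 8. Among all genes tested, the block called 6161 in edgeR and 6418 in limma-voom, against 5411 in the main fit. *Atf3* ranged from -0.095 to 0.38 when libraries or pools were left out and turned its sign. Left-out libraries or pools moved the number of all genes that differed between 3468 and 5236, of AP-1 and ATF relatives between 2 and 9, of other serum and stress response genes between 7 and 13, and of upstream factors and kinases between 6 and 11. With the replicate block, 8 AP-1 and ATF relatives differed in edgeR and 9 in limma-voom, which also called 11 heat shock and chaperone genes. An adjusted p-value under 0.01 left 3444 genes, 2 AP-1 and ATF relatives and 7 serum and stress response genes. The limit on the size of the change left 2986 genes, 7 serum and stress response genes, 3 upstream factors and kinases and 4 heat shock and chaperone genes. The causes of these changes were not tested, beyond the stricter limits and fewer libraries. No normalization moved the median of all genes by over 0.1 on the log2 scale. Each member held at least 86279 counts, and the exact tests of shares and ratios could not go below p = 0.1 with 3 libraries per population.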
